A study of Mus musculus with 6 samples.

Results

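The two-pore potassium leak channels set out here are 8 mouse genes, Kcnk1, Kcnk2, Kcnk3, Kcnk4, Kcnk10, Kcnk12, Kcnk13 and Kcnk18, named as a list by their symbols. Of these, 7 had probe sets (12 in all) among the 18193 genes that the arrays measured with a probe set of 1 gene symbol. Kcnk18, which encodes TRESK, had no such probe set, and its level was not analysed here. The arrays were 6 Affymetrix mouse expression arrays of dorsal root ganglion sensory neurons, 1 pool of neurons for each array. The L6-R and L3-S pools held 20 neurons each, marked by DiI, a dye carried back along the axon to the cell body, whereas each L3-B pool was made of 50 control neurons. Every code had 1 pool of big diameter neurons and 1 pool of medium to small diameter neurons. The labels give no genotype, strain, age, treatment, meaning of the codes, site of the dye or number of animals. L3-B therefore differed from the other codes in labelling and in the number of neurons as well as in code, and these cannot be told apart.

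Two-pore potassium channels pass a background potassium current that is open at rest and so helps to set the resting potential and the excitability of a neuron. Each subunit carries a pair of pore-forming segments, and a channel is formed by a pair of subunits. In sensory neurons, members of the family are known for sensing heat, stretch, acid and lipids, and for being targets of receptors that act through G proteins. The names by which the proteins are known are TWIK-1 (Kcnk1), TREK-1 (Kcnk2), TASK-1 (Kcnk3), TRAAK (Kcnk4), TREK-2 (Kcnk10), THIK-2 (Kcnk12) and THIK-1 (Kcnk13).

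The sequences below are those around annotated transcription starts of the 3 genes on which the results turn, Kcnk1, Kcnk12 and Kcnk2. Of those printed, only the Kcnk12 window reaches 5' of its gene. The Kcnk1 and Kcnk2 windows lie inside the annotated spans of their genes (chr8:125993655-126030685 and chr1:189207930-189402782). They come from RefSeq on GRCm38.p6, each 300 bases, from 250 bases before the start to 50 after it, 5' to 3' on the gene's strand. All 7 members of the list with an entry were read, in 11 windows, since some genes have several starts. Kcnk18 was among these, while Kcnk3 had no entry. Capitals mark matches to 3 motifs searched on both strands: TGANTCA (bound by AP-1 factors), TGACGTCA (the cyclic AMP response element) and TATAAA. The 11 windows held 1 match in all, to TGANTCA, beginning at position -126 relative to the second of 4 annotated starts of Kcnk2, so no matches overlapped. Of 32851 windows of the same length in the table, 7.81% held TGANTCA, 1.79% TGACGTCA and 13.6% TATAAA. The arrays do not show which start was used, and a match is a description of the letters only.

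Kcnk1, chr8:125994852-125995151, plus strand, no match: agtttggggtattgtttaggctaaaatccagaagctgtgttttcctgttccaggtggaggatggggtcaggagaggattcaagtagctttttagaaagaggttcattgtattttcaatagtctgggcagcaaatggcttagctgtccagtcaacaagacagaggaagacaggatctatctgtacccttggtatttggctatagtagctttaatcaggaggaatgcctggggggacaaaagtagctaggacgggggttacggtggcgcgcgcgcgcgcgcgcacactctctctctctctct

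Kcnk12, chr17:87797945-87798244, minus strand, no match: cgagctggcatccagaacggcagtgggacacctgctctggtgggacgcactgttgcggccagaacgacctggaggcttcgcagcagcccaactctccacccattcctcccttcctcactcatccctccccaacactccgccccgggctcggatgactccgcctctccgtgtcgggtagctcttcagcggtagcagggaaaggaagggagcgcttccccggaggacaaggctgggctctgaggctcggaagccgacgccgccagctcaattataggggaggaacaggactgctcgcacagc

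Kcnk2, the second start, chr1:189344143-189344442, minus strand, TGANTCA match in capitals: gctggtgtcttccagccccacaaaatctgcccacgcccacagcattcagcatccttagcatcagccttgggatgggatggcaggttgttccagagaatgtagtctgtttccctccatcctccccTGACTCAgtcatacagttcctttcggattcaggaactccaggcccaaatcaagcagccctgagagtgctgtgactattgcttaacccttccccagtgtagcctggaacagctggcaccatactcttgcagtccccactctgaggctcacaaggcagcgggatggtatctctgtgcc

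The windows differed in base composition. That of Kcnk1 was 49.0% G and C with 10 CpG dinucleotides, and that of Kcnk12 was 64.3% with 20. The 4 windows of Kcnk2 ran from 43.0% to 74.7% G and C with 3 to 33 CpG, against medians of 52.7% and 7 over all windows in the table.

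Signals are the authors' linear values, and differences are those of log2(signal + 32), which shrinks differences between low signals. Signals under 32 are taken here as near background and made up 55.3% to 59.5% of the probe sets of an array. All 9 sensory neuron markers were over 32 in every array, with summed signals of 45025.9 to 61885.3. Glial markers were present as well, with sums of 11027.9 and 13963.7 in the L6-R pools (big, then medium to small), 9394.6 and 12667.3 in the L3-S pools, and 10713.5 and 9102 in the L3-B pools. S100b and Pmp22 made up most of each sum (6831.8 and 2969.7 in the L3-B big pool), so the sums say little of the other glial markers. Sox10, for example, gave 124.2 and 202.5 in L6-R, 90.9 and 105.2 in L3-S, and 38.7 and 7.36 in L3-B. The ratio of 3' to 5' Actb signal, a measure of RNA integrity, was 8.31 and 8.42 in L6-R, 5.42 and 12 in L3-S, and 13.9 and 3.73 in L3-B. Fewer neurons of a kind in a pool and less RNA of a gene in each neuron cannot be told apart.

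**Figure D1:**
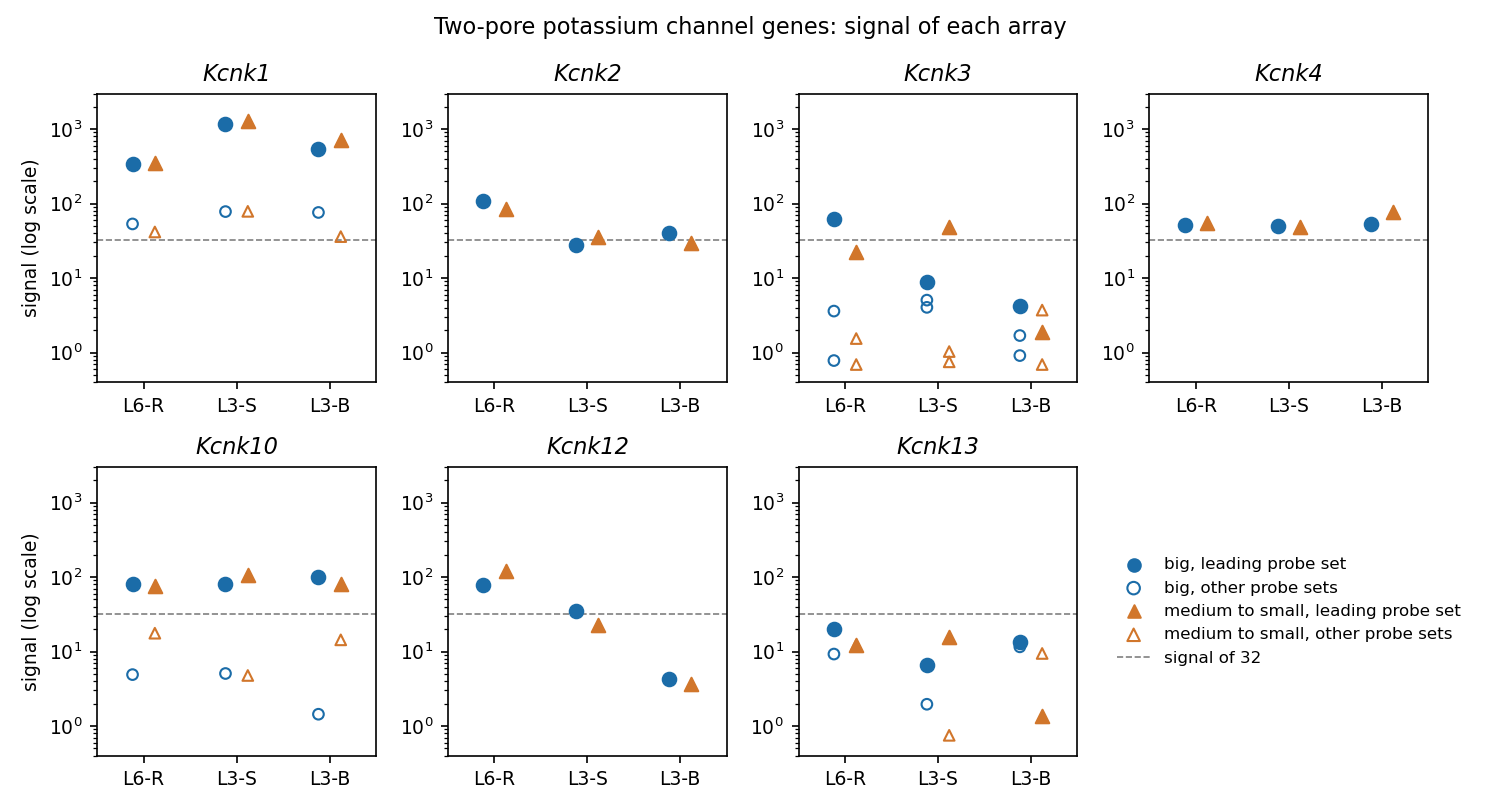
Signal of every probe set of the 7 measured genes in each array, on a log axis, with circles for big and triangles for medium to small neurons and filled symbols for the probe set with the highest mean. Kcnk1 lies at 343 and 345 in L6-R and between 542 and 1299 elsewhere, Kcnk2 and Kcnk12 are highest in L6-R, and Kcnk13 lies under the dashed line at 32 in every array.

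Kcnk1 was lower in L6-R neurons than in L3-S neurons. TWIK-1 is known as a weakly rectifying, acid-sensitive channel that gives little current by itself. On its leading probe set the L6-R pools gave 343 and 345 (big first, then medium to small), the L3-S pools 1169.6 and 1299, and the L3-B pools 542 and 702. The 3 codes did not overlap, with L3-S highest and L6-R lowest in both size classes. Kcnk1 fell by 1.75 log2 in L6-R against L3-S (SE 0.22, n = 2 arrays each, limma adjusted p = 0.00661), a 3.36-fold difference as estimated. Big neurons alone gave -1.68 and medium to small neurons -1.82. With the Actb ratio as a covariate the difference stayed past the threshold (limma adjusted p = 2.55e-05).

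The L3-B level of Kcnk1 stood between the other codes without differing past the threshold from either. L6-R stood at -0.79 ± 0.22 log2 against L3-B (SE, n = 2 arrays each, limma adjusted p = 0.0764; higher in 0 of 2 pairs). L3-S stood at 0.96 ± 0.22 log2 against L3-B (limma adjusted p = 0.110; higher in 2 of 2 pairs). With the Actb ratio as a covariate, a fit with 1 residual degree of freedom, both passed, at -0.77 (limma adjusted p = 0.0181) and 0.98 (limma adjusted p = 0.00944). Over 17 alternatives each, the adjusted p ran from 0.0181 to 0.533 for L6-R and from 0.00944 to 0.315 for L3-S.

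The other Kcnk1 probe set, of a design that can bind several transcripts of 1 gene, showed a smaller spread at low signal. It gave 53.2 and 41.5 for the L6-R pools, 78.0 and 78.6 for L3-S, and 75.9 and 36.0 for L3-B. L6-R was below L3-S here too, by -0.48 log2, while the L3-B arrays spanned nearly the range of the others. Averaging both probe sets gave -1.11 for L6-R against L3-S (limma adjusted p = 0.0301), and the adjusted p ran from 2.55e-05 to 0.0439 over 17 alternatives.

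Of the 7 measured genes, Kcnk1, Kcnk10 and Kcnk4 were among the 9097 genes in the upper 50% by mean level, which were tested. The minimum mean was 6.41 log2; Kcnk4 lay just inside at 6.44 and Kcnk2 just outside at 6.35. In L6-R against L3-S, 1 of 3 tested members passed at an adjusted p of 0.05, a fall, beside 3.18% of all tested genes. In L6-R against L3-B 0 of 3 passed beside 7.51%, and in L3-S against L3-B 0 of 3 passed beside 1.02%, each with 1 member at an unadjusted p under 0.05 in limma, Kcnk1. With all 18193 genes in the fit and all 7 members tested, 1 passed in L6-R against L3-S (Kcnk1, adjusted p = 0.0278) beside 0.588% of genes. There, 1 passed in L6-R against L3-B (Kcnk12) beside 2.51%, and 0 in L3-S against L3-B beside 0.0770%. The comparisons share arrays, so their values are set side by side and not combined.

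**Figure D2:**
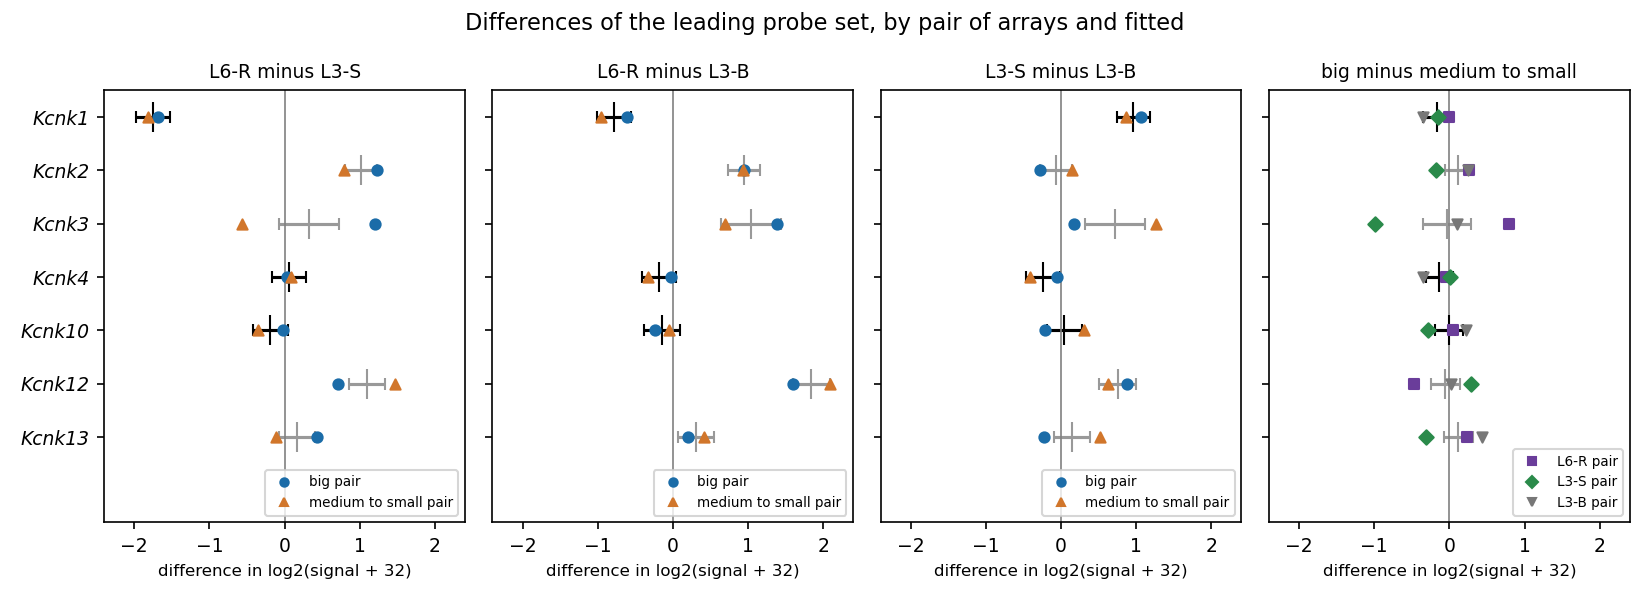
Differences in log2(signal + 32) of the leading probe sets in the 4 comparisons, with coloured symbols for single pairs of arrays and bars for the fitted difference ± SE (black where tested, grey where not, from the fit to all genes). Kcnk1 lies at -1.75 in L6-R minus L3-S, and Kcnk12 at 1.09, 1.84 and 0.75 in the 3 comparisons of codes, with L3-B under 32.

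Of the TREK subfamily, channels opened by stretch, heat and lipids, Kcnk2 had its highest signals in L6-R, without passing the test. On its single probe set the L6-R pools gave 109 and 85.2, the L3-S pools 27.9 and 35.5, and the L3-B pools 40.7 and 29.1. Both L6-R arrays lay above all 4 others, which overlapped each other and lay near background. The difference was 1.01 ± 0.21 log2 in L6-R against L3-S and 0.95 ± 0.21 against L3-B (SE, n = 2 arrays each), and -0.07 ± 0.21 in L3-S against L3-B. Kcnk2 was outside the genes tested. In the fit to all genes it did not pass (limma adjusted p = 0.125 and 0.0927 for L6-R against L3-S and L3-B). It entered the test when genes were taken as the mean of their probe sets, and then stood at an adjusted p of 0.0511 and 0.0404 in limma. The filter uses the mean over all arrays, so the high L6-R signals of Kcnk2 helped to admit it to that test.

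Kcnk10 and Kcnk4, the other TREK genes, passed in no comparison. Kcnk10 gave 80.2 and 76.4 for the L6-R pools, 81.8 and 106.8 for L3-S, and 99.9 and 80.8 for L3-B, with L6-R just under the others, which overlapped. Its difference was -0.19 in L6-R against L3-S with a 95% interval of -0.72 to 0.35 (limma adjusted p = 0.758), -0.15 against L3-B (-0.68 to 0.39) and 0.04 in L3-S against L3-B (-0.49 to 0.58). The intervals leave room for differences of up to 0.72 in size. The other Kcnk10 probe set stayed under 18 in every array and gives no order.

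Kcnk4, TRAAK, gave 51.1 and 54.0 for the L6-R pools, 49.3 and 49.0 for L3-S, and 52.8 and 76.2 for L3-B. Only the L3-B medium to small pool stood apart, above the other 5. The difference was 0.06 in L6-R against L3-S (95% interval -0.46 to 0.58, limma adjusted p = 0.935), -0.18 in L6-R against L3-B (-0.70 to 0.34) and -0.24 in L3-S against L3-B (-0.76 to 0.28).

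Kcnk12 was over 32 in both L6-R pools and under 5 in both L3-B pools. THIK-2, its product, is known as a subunit that stays largely inside the cell and gives little current alone. On its single probe set the L6-R pools gave 77.8 and 120.2, the L3-S pools 34.9 and 23.0, and the L3-B pools 4.34 and 3.67. Both L6-R arrays lay above all others, while the L3-B signals and that of the L3-S medium to small pool were under 32, where no order is read. In L6-R it stood 1.84 ± 0.24 log2 above L3-B (SE, n = 2 arrays each; adjusted p = 0.0177 in the limma fit to all genes). Kcnk12 stood 1.09 ± 0.24 above L3-S (adjusted p = 0.139 in the same limma fit), and L3-S stood 0.75 ± 0.24 above L3-B (adjusted p = 0.422). As the L3-B signals are under 32, no fold is given and the sizes depend on the added 32: the difference from L3-B was 4.29 with 1 added and 0.78 with a larger constant.

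Some markers of other cells were also higher in L6-R than in L3-B, as were Kcnk2 and Kcnk12. In L6-R against L3-B, 3 of 7 tested glial markers rose (Fabp7 1.53, Mbp 2.13 and Sox10 1.86) and 0 fell, with a median of 1.10 beside 0.02 over all tested genes, 7.51% of which were called. Genes were tested by their mean over all arrays, so the high L6-R signals of Sox10 helped to admit it. The sums of 8 connective tissue and vessel markers were 855.1 and 1530.6 in L6-R, 1239.1 and 1344.3 in L3-S, and 321.6 and 220.6 in L3-B. Of these 2 were tested and both rose in L6-R against L3-B (Dcn 2.13 and Rgs5 1.73); Rgs5 also rose by 3.32 in L3-S against L3-B. Of the vessel lining markers, Pecam1 and Cdh5 stayed under 32 in every array, while Cldn5 gave 29.0 and 119.6 for the L6-R pools, 25.7 and 29.8 for L3-S, and 39.7 and 20.3 for L3-B. In L6-R against L3-S, 0 of 7 glial and 0 of 2 connective tissue markers passed, but single markers stood far from 0. Mbp stood at 1.31 (limma adjusted p = 0.132), Dcn at 1.30 (0.0842) and Rgs5 the other way at -1.59 (0.0721). The medians were 0.33 for the glial and -0.15 for the connective tissue markers, beside -0.01 over all tested genes. Of the tested glial markers, Fabp7 (-0.42) and S100b (-0.12) were lower in L6-R than in L3-S. Fabp7 stood at 1.95 in L3-S against L3-B (limma adjusted p = 0.0505), where Kcnk2 stood at -0.07. Of the immune cell markers, C1qb, which was not tested, was highest in L6-R, as Kcnk2 was. It gave 95.2 and 109.85 for the L6-R pools, 20.5 and 6.64 for L3-S, and 47.4 and 38.9 for L3-B. In L6-R against L3-S it stood at 1.58. Csf1r, the 1 immune marker tested, stood at 0.80 in that comparison (limma adjusted p = 0.345). It gave 69.3 and 122.3 for the L6-R pools and 71.1 and 18.0 for L3-S. Cd68 (0.26), Ptprc (0.24), C1qa (0.20) and Lyz2 (0.02) also stood above 0. Aif1 (-0.25), Cx3cr1 (-0.22) and Itgam (-0.13) went the other way, at signals under 32. Col3a1, a connective tissue marker also not tested, gave 70.6 and 111.1 for L6-R, 32.2 and 82.3 for L3-S, and 8.21 and 30.9 for L3-B. The part of these cells in the levels of Kcnk1, Kcnk2 and Kcnk12 was not tested.

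Kcnk13, the other THIK gene, was not above background. Its product is a channel that halothane inhibits and that microglia of the brain are known to use. The leading probe set gave 20.0 and 12.3 for the L6-R pools, 6.55 and 15.8 for L3-S, and 13.2 and 1.36 for L3-B, and the other probe set stayed under 13. Signals in this range have no order. Of 9 immune cell markers, 6 to 8 were under 32 in each array, with sums of 210.5 and 399.7 in L6-R, 201.1 and 104.7 in L3-S, and 161.7 and 120.7 in L3-B.

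Kcnk3, the acid-sensitive TASK-1, was over 32 in single pools only. Its leading probe set gave 62.6 and 22.6 for the L6-R pools, 8.93 and 49.0 for L3-S, and 4.25 and 1.90 for L3-B. The L6-R and L3-S arrays overlapped, and their order turned between size classes, with differences of 1.21 in the big pair and -0.57 in the medium to small pair. The fitted difference was 0.32 ± 0.40 log2 in L6-R against L3-S, 1.04 ± 0.40 in L6-R against L3-B and 0.72 ± 0.40 in L3-S against L3-B, and none passed in the fit to all genes (limma adjusted p = 0.818, 0.288 and 0.701). The other 2 Kcnk3 probe sets stayed under 6 in every array.

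Size class separated none of the members past the threshold. In the big against the medium to small pools the tested members stood at -0.17 ± 0.18 log2 (Kcnk1), -0.13 ± 0.18 (Kcnk4) and 0.00 ± 0.19 (Kcnk10) (SE, n = 3 arrays each), with limma adjusted p of 0.998, 0.998 and 0.999. Of 3 tested members 0 passed beside 0% of all tested genes, and also 0 of 7 beside 0% with all genes in the fit. At an unadjusted p under 0.05 in limma, 0 members and 320 of 9097 genes would pass. Kcnk1 ranged from 343 to 1169.6 in the big pools and from 345 to 1299 in the medium to small pools, so its spread between codes exceeded the gap between sizes within any code. The 95% interval of its size difference was -0.59 to 0.25.

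The other 5 measured two-pore channel genes, Kcnk5, Kcnk6, Kcnk7, Kcnk15 and Kcnk16, stayed under 32 in every array and 0 of them were tested. Of 15 inward rectifier genes, which also pass potassium at rest, 5 were tested and 1 fell in L6-R against L3-B, where 7.51% of all tested genes were called. That gene was Kcnj3, a subunit of channels opened by G proteins, which gave 35.4 and 59.8 for the L6-R pools and 182.3 and 148.2 for the L3-B pools (-1.32 ± 0.25 log2, limma adjusted p = 0.0156). Its call was lost without the L6-R big array (-1.01, adjusted p = 0.237 in limma). In L6-R against L3-S and in L3-S against L3-B 0 of the 5 passed, with medians of 0.07 and 0.21. Single genes stood far from these medians. Kcnj3 gave 125.2 and 116.1 for the L3-S pools and stood at -0.96 in L6-R against L3-S (limma adjusted p = 0.0899). Kcnj14 stood at -1.02 in L3-S against L3-B (limma adjusted p = 0.138) and at -0.91 in L6-R against L3-B (0.074).

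Of 21 partners and regulators of two-pore channels, such as calcineurin subunits, MARK kinases and 14-3-3 proteins, 18 were tested and 1 rose in L6-R against L3-B, a share no higher than the 7.51% of all tested genes called there. Mark1, a kinase of the family that inhibits TRESK, gave 1594 and 1704 for the L6-R pools and 863 and 823 for the L3-B pools (0.94 ± 0.22 log2, limma adjusted p = 0.0395), on a probe set of a type that can bind transcripts of several genes. It lost its call without the L6-R big, L6-R medium to small or L3-B medium to small array (adjusted p = 0.299, 0.275 and 0.107 in limma), with differences of 0.94, 0.94 and 0.82. It also lost it with 1 added to the signal (0.97, adjusted p = 0.0758), with no filter (0.94, adjusted p = 0.0762) and as the mean of its probe sets (0.53, adjusted p = 0.138). In the other comparisons 0 of the 18 passed, and the medians ran from -0.02 to 0.04. Single partners stood far from 0. Map2 gave 584 and 671 for the L6-R pools, 2401 and 1358 for L3-S, and 871 and 1951 for L3-B. It stood at -1.48 in L6-R against L3-S (limma adjusted p = 0.0974) and at -1.02 in L6-R against L3-B (0.181). Mark1 stood the other way in L6-R against L3-S, at 0.49 (limma adjusted p = 0.337). Of 6 tested genes of the Gq pathway, through which receptors act on several of these channels, 0 passed in any comparison (median 0.58 in L6-R against L3-B and 0.40 in L3-S against L3-B, beside 0.02 and 0.03 over all tested genes). Gna14 stood at 1.20 in L3-S against L3-B (limma adjusted p = 0.0833) and at 0.89 in L6-R against L3-B (0.0821). In L6-R against L3-B Plcb3 stood at 0.94 (limma adjusted p = 0.0686) and Plcb4 the other way at -0.46 (0.296). Plcb4 stood at -0.76 in L6-R against L3-S (limma adjusted p = 0.139), where the median was 0.12. Of 3 tested genes of the sodium leak channel complex, which carries the opposing resting current, 0 passed (median -0.42 in L6-R against L3-S); Unc80 stood lowest at -0.94 ± 0.22 (limma adjusted p = 0.0650).

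The genes whose pattern over the 6 arrays was most like that of Kcnk1 were Adamts3, a procollagen-processing protease, Bmper, which binds bone morphogenetic proteins, and Septin4, a septin. Likeness was the root mean square difference between log2 values centred on each gene's mean, among 9096 other tested genes, and was 0.15, 0.15 and 0.17, against a standard deviation of 0.79 for Kcnk1 itself. Adamts3 gave 27.9 and 43.7 for the L6-R pools, 163 and 196 for L3-S, and 74.6 and 122 for L3-B. Bmper gave 36.0 and 40.5 for L6-R, 146 and 189 for L3-S, and 76.3 and 118 for L3-B. Septin4 gave 150.5 and 219 for L6-R, 688 and 768 for L3-S, and 354 and 357 for L3-B. All 3 were lowest in L6-R and highest in L3-S without overlap, as Kcnk1 was. That order largely follows from picking them for likeness to Kcnk1 and is no separate result. For Kcnk10 the nearest were Timm13, Klhdc2 and Ppp1cc (0.03, 0.04 and 0.04, beside a standard deviation of 0.15), and for Kcnk4 they were Mpp1, Mterf3 and Tbc1d25 (0.05, 0.06 and 0.06, beside 0.16).

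**Figure D3:**
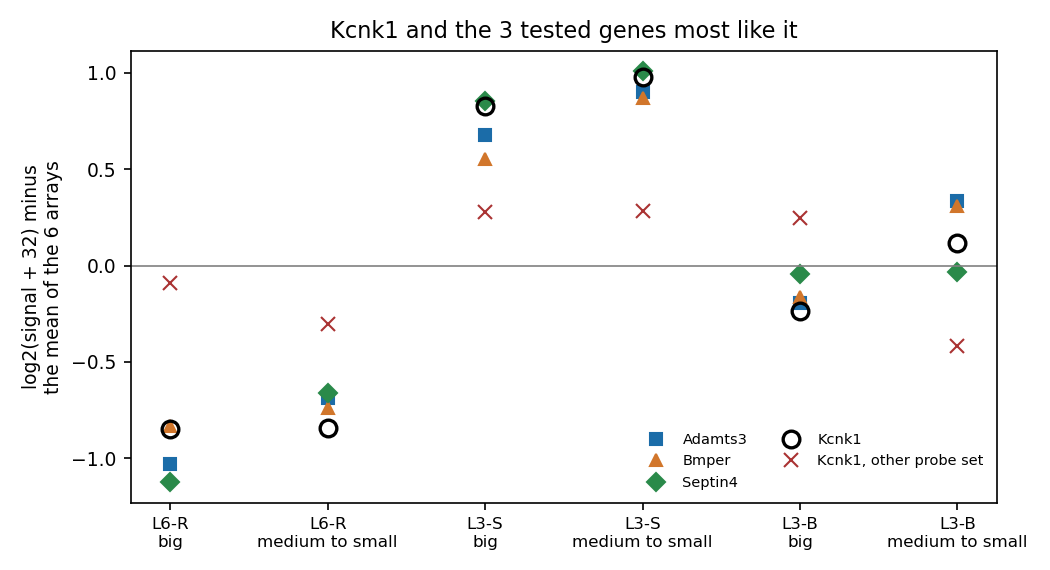
Centred log2(signal + 32) of Kcnk1 (open circles), its other probe set (crosses) and the 3 most similar tested genes in each array. Kcnk1 and the similar genes, which were picked for this likeness, are lowest in both L6-R arrays and highest in both L3-S arrays. The other Kcnk1 probe set is lowest in the medium to small pool of L3-B.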

How the data were processed

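Each of 6 arrays held 1 pool, grouped by the title code and size class that GEO's labels give, so no combination has replicate arrays; the spread behind each p-value is that between these pools, and may be technical. No depth exists for arrays, and their number limits the precision. The authors deposited linear signal intensity for 45037 probe sets and 64 control probe sets. Every array had a mean of 150 after trimming 2% at each end, so the values were taken as already scaled; the summary method is not given in the sources used here.

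Gene names come from the platform annotation, which gave 34945 probe sets 1 symbol, 932 several and 9160 none; the current RefSeq table changed 0 symbols. A gene was led by its probe set with the highest mean log2(signal + 32). In R 4.3.3, limma 3.58.1 (lmFit, eBayes, two-sided) fitted code and size class additively to all arrays (2 residual and 6.46 prior degrees of freedom) over the upper 50% of genes, with Benjamini-Hochberg adjustment over them; the same script was tested on simulated data. The additive model assumes like code differences in both size classes. Standard errors of genes outside the test come from the fit to all genes. Named genes were all members, list members past the threshold (at most 4 a list) and the 3 genes most like each of up to 3 tested members. Unc80, Kcnj14, Pecam1, Cdh5, Cldn5 and the other glial, immune and connective tissue markers named were chosen after their values were seen. Map2, Gna14, Plcb3 and Plcb4 were likewise chosen after their values were seen. Members and lists were chosen with earlier results of these data known. Alternatives were another normalization, a smaller and a larger pseudocount, filters (none, upper 25%), the mean of probe sets, variance priors, array weights, an Actb covariate, only the arrays of the codes compared, and leaving out each array.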

Additional observations from a re-analysis of the deposited data

Results flagged for a closer look

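Kcnk3 moved in opposite directions by at least 0.5 log2 in matched pairs of arrays. In L6-R against L3-S it stood at 1.21 in the big pair and -0.57 in the medium to small pair. In big against medium to small neurons it stood at 0.79 in the L6-R pair and -0.98 in the L3-S pair, and at 0.10 in the L3-B pair. With 1 array for each combination, the difference between pairs was not tested, and 4 of the 6 Kcnk3 signals lay under 32.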

How the results depend on the processing

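Size class was a term of every model, so codes were compared within size class; no further replicate block could be added, as each code and size class has 1 array. The number of members called did not change under any alternative in L6-R against L3-S (Kcnk1 in all 17, some of which were the same fit) or in big against medium to small neurons. In L6-R against L3-B it was 1, not 0, with no filter (Kcnk12), with the mean of probe sets (Kcnk2) and with the Actb covariate (Kcnk1). In L3-S against L3-B it was 1 with the Actb covariate (Kcnk1). These were the 4 calls gained among 469 recomputed member differences, of which 411 moved by at most 1 SE and 58 by more. The Kcnk2 call rests on a filter mean that includes its high L6-R signals. Many of the 469 could not move, so the 411 does not measure stability. Filters and variance priors leave a difference as it is. Between codes, so do array weights, the fit to the arrays compared and leaving out an array of the third code. The 17 of Kcnk1 in L6-R against L3-S, the 1 called difference, kept call and sign. There, the fit to the arrays compared and those without either L3-B array were the same fit. Without 1 array, Kcnk1 in L6-R against L3-S ran from -1.87 to -1.63, Kcnk12 in L6-R against L3-B from 1.53 to 2.16, and Kcnk3 in L6-R against L3-S from -0.39 to 1.03. Kcnk12 against L3-S ran from 0.78 to 1.41. Counts of all genes called ran from 107 to 994 in L6-R against L3-S (289 as reported), from 299 to 1590 in L6-R against L3-B (683), from 14 to 512 in L3-S against L3-B (93) and from 0 to 2 between sizes (0), the highest in each case with the Actb covariate; the cause was not tested. Quantile normalization moved the median of all genes by less than 0.04 log2. Signals near 32 limit what can be said of Kcnk2, Kcnk3, Kcnk12 and Kcnk13.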
